A study of Mus musculus with 42 samples.

Results

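The adenosine pathway genes described here are Entpd1, Nt5e, Cd38, Ada, Dpp4 and Adora2a, 6 of the 46603 genes in the count table, chosen by name for their place in the making, breakdown and sensing of extracellular adenosine. Earlier results of these data were known at that choice, so member counts beside shares of all genes are descriptions. The 6 genes were measured by bulk RNA sequencing in mouse CD4 T cells, split into regulatory (Treg) and conventional (Tconv) cells by flow cytometry on a green reporter under the Foxp3 promoter (the DEREG transgene, not the Foxp3 gene itself, which every group carried). TNFdARE mice, whose Tnf transcript lacks an AU-rich element that limits its stability, were set against WT littermates that carried the reporter alone. Cells came from the ileum, from the mesenteric node that drains it, from the ankle joint (synovium) and from the inguinal plus popliteal nodes of the same joint (joint nodes). The 42 libraries fall into 16 groups of cell type, site and genotype, over 3 experiments named A, B and C. Of these groups 11 hold 3 libraries, 4 hold 2 (TNFdARE Treg and TNFdARE Tconv of the mesenteric node from B and C, TNFdARE Tconv and WT Treg of the synovium from A and B) and 1, WT synovial Tconv, holds 1 from A. The labels call the 3 experiments independent but do not say how many mice a library holds, so p-values measure the spread between these libraries.

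Extracellular ATP, released by stressed or dying cells and through channels such as pannexin 1, is a danger signal that is turned into adenosine at the cell surface. CD39 (Entpd1) removes phosphates from ATP and ADP to leave AMP, and CD73 (Nt5e) turns AMP into adenosine. CD38 (Cd38) consumes NAD and feeds another route to AMP. Adenosine deaminase (Ada) turns adenosine into inosine, and CD26 (Dpp4), a peptidase that trims chemokines and other peptides, anchors that enzyme on the surface of human T cells. Adenosine acts on T cells mainly through the receptor encoded by Adora2a, which couples to cAMP and dampens activation. CD39 and CD73 on Treg are a known means of suppression.

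The regions around the start sites of Entpd1, Nt5e and Cd38 are shown because these 3 genes were higher together in TNFdARE Tconv of both nodes. RefSeq (build GRCm38.p6) gave a start site for 5 of the 6 genes, a pair of them for Entpd1. Each window runs from 250 bases before the start to 50 after it, 5′ to 3′ on the gene's strand, with capitals for every match to 5 motifs searched on both strands.
Entpd1, upstream start (chr19:40612116-40612415, + strand): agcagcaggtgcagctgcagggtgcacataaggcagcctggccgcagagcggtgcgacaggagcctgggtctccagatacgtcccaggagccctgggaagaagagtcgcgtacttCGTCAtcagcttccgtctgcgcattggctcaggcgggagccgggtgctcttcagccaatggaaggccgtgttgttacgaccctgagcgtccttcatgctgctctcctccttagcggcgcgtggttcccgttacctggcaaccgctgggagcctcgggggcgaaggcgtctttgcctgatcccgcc
Entpd1, downstream start (chr19:40659520-40659819, + strand): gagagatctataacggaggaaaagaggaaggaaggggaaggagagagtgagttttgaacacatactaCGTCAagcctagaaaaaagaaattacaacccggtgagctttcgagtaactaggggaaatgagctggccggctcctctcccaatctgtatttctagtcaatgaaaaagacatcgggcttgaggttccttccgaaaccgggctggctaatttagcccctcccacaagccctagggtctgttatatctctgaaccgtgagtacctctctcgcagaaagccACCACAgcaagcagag
Nt5e (chr9:88327359-88327658, + strand): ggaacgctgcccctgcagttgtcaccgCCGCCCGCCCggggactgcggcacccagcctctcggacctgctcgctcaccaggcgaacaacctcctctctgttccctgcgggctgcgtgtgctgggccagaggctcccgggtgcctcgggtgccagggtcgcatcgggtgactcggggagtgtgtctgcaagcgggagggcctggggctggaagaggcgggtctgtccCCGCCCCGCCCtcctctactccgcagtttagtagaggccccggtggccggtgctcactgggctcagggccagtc
Cd38 (chr5:43868559-43868858, + strand): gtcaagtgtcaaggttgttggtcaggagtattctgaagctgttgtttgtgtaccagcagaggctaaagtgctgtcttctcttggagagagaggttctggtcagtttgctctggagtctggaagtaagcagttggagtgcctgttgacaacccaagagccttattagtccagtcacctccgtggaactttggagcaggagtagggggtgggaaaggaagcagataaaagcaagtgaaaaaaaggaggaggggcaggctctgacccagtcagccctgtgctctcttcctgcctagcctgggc
The motifs were the CRE half-site (TGACG or CGTCA, the core of the element bound by cAMP-response factors), the forkhead core (TGTTTAC or GTAAACA), the Runt site (TGTGGT or ACCACA), the GC box (GGGCGG or CCGCCC) and the kB consensus of NF-kB by name. Among 32851 promoter windows of this length, 20.8% held a CRE half-site, 3.65% a forkhead core, 16.8% a Runt site, 35.7% a GC box and 8.46% a kB consensus. Both Entpd1 windows held 1 CRE half-site, 135 bases before the upstream start and 183 before the downstream one, and the downstream window also held a Runt site. Nt5e held 4 GC boxes in a window of 71% G and C, and Cd38 held none of the 5 motifs. Of the windows not printed, that of Ada held 2 GC boxes and 1 kB consensus and that of Dpp4 none. These matches are descriptions of letters, not of bound sites.

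Libraries held between 18261064 and 30301202 counts, and 13341 to 31454 genes were detected in a library. The most were seen in joint node Tconv, at 29599 genes in TNFdARE experiment B and 31454 in WT experiment C, against at most 21065 in any other library. T cell markers (6 genes) summed to at least 3093.5 CPM in every group mean. Foxp3 averaged 869.1 to 1554.1 CPM in the Treg groups, but it was not confined to them. TNFdARE synovial Tconv held 618.5 and 615.4 CPM of Foxp3 in experiments A and B, 43.7% of the mean in TNFdARE synovial Treg, against 31.1 CPM in the WT synovial Tconv library. That WT library also held 1123.1 CPM of CD8 and NK markers, against at most 67.9 CPM in the mean of any other group. Synovial Treg held 4204.5 CPM of fibroblast markers in TNFdARE and 14923.2 CPM in WT, and ileal Treg libraries held up to 6107.9 CPM of plasma cell markers. In these bulk samples fewer cells of a type and less RNA per cell cannot be told apart.

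**Figure D1:**
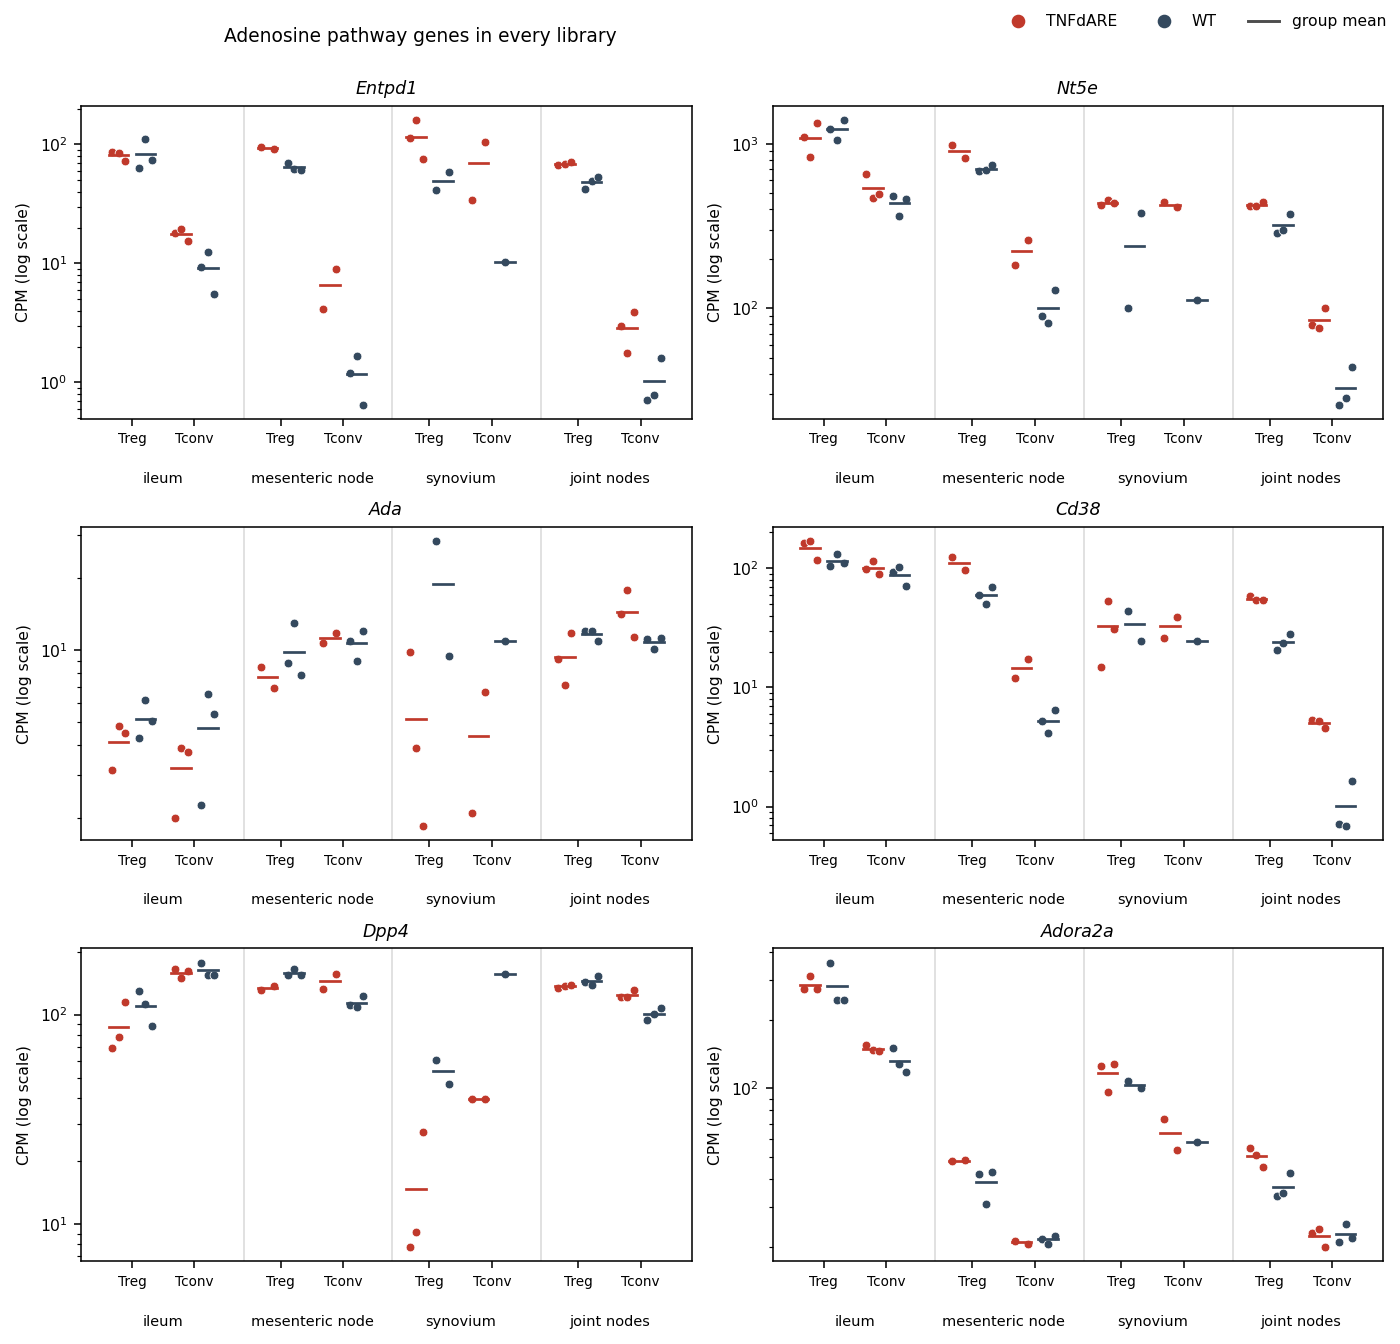
CPM on a log scale for the 6 genes in each of the 42 libraries (points) with the group mean (line), by site and cell type, TNFdARE in red and WT in dark blue. Entpd1, Nt5e and Cd38 spread the most between groups, with Cd38 means from 1.02 to 148.8 CPM, and Ada the least, with means from 3.22 to 18.9 CPM.

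Entpd1 (ENSMUSG00000048120, GRCm38 chr19:40612366-40741602, + strand), which encodes the ATP-cleaving enzyme CD39, had its highest levels in Treg. Levels are given as CPM, relative to the library total after TMM scaling of all libraries and as mean ± SD over the libraries of the group. In the ileum Entpd1 averaged 81.4 ± 7.11 CPM in TNFdARE Treg and 82.8 ± 25.4 in WT Treg, with 17.7 ± 1.98 in TNFdARE Tconv and 9.18 ± 3.54 in WT Tconv. The mesenteric node gave 93.7 ± 2.14 CPM in TNFdARE Treg and 64.3 ± 4.92 in WT Treg, with 6.54 ± 3.37 in TNFdARE Tconv and 1.18 ± 0.514 in WT Tconv. At both sites the lowest Treg library lay above the highest Tconv library. In the synovium the means were 116.6 ± 42.6 CPM in TNFdARE Treg and 49.8 ± 12.2 in WT Treg, with 69.5 ± 49.9 in TNFdARE Tconv and 10.2 in the WT Tconv library. Joint nodes held 68.9 ± 2.02 CPM of Entpd1 in TNFdARE Treg and 48.2 ± 5.71 in WT Treg, with 2.87 ± 1.06 in TNFdARE Tconv and 1.03 ± 0.492 in WT Tconv. The 113.2-fold range of group means ran between TNFdARE synovial Treg at the top and WT joint node Tconv at the bottom, where the 3 libraries held 18, 17 and 29 counts. Ordered by mean, 10 of the 15 neighbouring groups overlapped in their library values. The gaps without overlap lay below WT mesenteric Treg, below WT joint node Treg, and below the TNFdARE Tconv of the ileum, the mesenteric node and the joint nodes. In TNFdARE synovial Tconv the libraries lay far apart, at 34.2 CPM in experiment A and 104.8 CPM in B.

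Nt5e (ENSMUSG00000032420, chr9:88327197-88372092, + strand) encodes CD73, the enzyme that makes adenosine from AMP, and had the highest counts of the 6 genes. In the ileum Nt5e averaged 1081.6 ± 250.4 CPM in TNFdARE Treg and 1222.2 ± 171.5 in WT Treg, with 536.5 ± 98.9 in TNFdARE Tconv and 435.1 ± 62.7 in WT Tconv. The mesenteric node gave 901.3 ± 121.6 CPM in TNFdARE Treg and 701.5 ± 31 in WT Treg, with 222.3 ± 54.5 in TNFdARE Tconv and 100.3 ± 25.7 in WT Tconv. Tconv held a larger share of the Treg level of Nt5e in the ileum, 49.6% in TNFdARE and 35.6% in WT, than in the mesenteric node, 24.7% in TNFdARE and 14.3% in WT. In the synovium the means were 438.1 ± 14.4 CPM in TNFdARE Treg and 239.9 ± 198.1 in WT Treg, with 425.8 ± 22.6 in TNFdARE Tconv and 111.5 in the WT Tconv library. Joint nodes held 424.3 ± 13.6 CPM of Nt5e in TNFdARE Treg and 318.3 ± 47.1 in WT Treg, with 85.2 ± 12.8 in TNFdARE Tconv and 32.7 ± 9.59 in WT Tconv. The order ran from ileal Treg at the top to WT joint node Tconv at the bottom, and 9 of 15 neighbouring groups overlapped. WT synovial Treg stood out for their spread, with 99.8 CPM in experiment A and 380.0 CPM in B.

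Cd38 (ENSMUSG00000029084, chr5:43868553-43912375, + strand) encodes the NAD-consuming ectoenzyme CD38. In the ileum Cd38 averaged 148.8 ± 28.3 CPM in TNFdARE Treg and 115.2 ± 13.6 in WT Treg, with 100.9 ± 13.7 in TNFdARE Tconv and 88.3 ± 16.1 in WT Tconv. The mesenteric node gave 109.8 ± 18.7 CPM in TNFdARE Treg and 59.9 ± 9.46 in WT Treg, with 14.6 ± 3.73 in TNFdARE Tconv and 5.28 ± 1.2 in WT Tconv. Ileal Tconv held more Cd38 than WT Treg of the mesenteric node, in every library. In the synovium the means were 32.9 ± 19 CPM in TNFdARE Treg and 34.2 ± 13.8 in WT Treg, with 32.5 ± 9.24 in TNFdARE Tconv and 24.7 in the WT Tconv library. Joint nodes held 55.6 ± 2.02 CPM of Cd38 in TNFdARE Treg and 24 ± 3.64 in WT Treg, with 5.06 ± 0.392 in TNFdARE Tconv and 1.02 ± 0.55 in WT Tconv. Group means spanned 146.1-fold, and WT joint node Tconv were lowest with 18, 15 and 30 counts. Of 15 neighbouring groups 9 overlapped. WT joint node Tconv had no library in reach of TNFdARE joint node Tconv.

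Dpp4 (ENSMUSG00000035000, chr2:62330073-62412231, − strand) encodes the surface peptidase CD26. Its exons overlap the antisense gene Gm13561, which reached at most 25 counts in a library; whether counting used strand is not given in the sources used here, so reads of the pair cannot be told apart. In the ileum Dpp4 averaged 87.2 ± 23.8 CPM in TNFdARE Treg and 110.2 ± 21 in WT Treg, with 158.8 ± 8.38 in TNFdARE Tconv and 162.4 ± 12.7 in WT Tconv. The mesenteric node gave 134.2 ± 3.72 CPM in TNFdARE Treg and 158.5 ± 6.14 in WT Treg, with 144.8 ± 16.6 in TNFdARE Tconv and 113.8 ± 7.25 in WT Tconv. Unlike for the 3 genes above, every ileal Tconv library exceeded every ileal Treg library. In the synovium the means were 14.7 ± 10.9 CPM in TNFdARE Treg and 53.5 ± 9.68 in WT Treg, with 39.5 ± 0.0994 in TNFdARE Tconv and 156.6 in the WT Tconv library. Joint nodes held 136.2 ± 2.57 CPM of Dpp4 in TNFdARE Treg and 145.1 ± 7.49 in WT Treg, with 124.5 ± 5.42 in TNFdARE Tconv and 100.9 ± 6.56 in WT Tconv. Its lowest libraries were all synovial: TNFdARE Treg held 7.75, 9.15 and 27.4 CPM in experiments A, B and C. Of 15 neighbouring groups 10 overlapped, and TNFdARE synovial Treg were separated below all others.

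Ada (ENSMUSG00000017697, chr2:163726584-163750239, − strand), which encodes the enzyme that turns adenosine into inosine, had the lowest median level of the 6 genes, 8.88 CPM, with 40 to 568 counts in a library. In the ileum Ada averaged 4.15 ± 0.882 CPM in TNFdARE Treg and 5.17 ± 0.952 in WT Treg, with 3.22 ± 1.06 in TNFdARE Tconv and 4.73 ± 2.21 in WT Tconv. The mesenteric node gave 7.74 ± 1.09 CPM in TNFdARE Treg and 9.83 ± 2.67 in WT Treg, with 11.2 ± 0.697 in TNFdARE Tconv and 10.6 ± 1.52 in WT Tconv. Every mesenteric library was above every ileal one, with overlap between Treg and Tconv within each site. In the synovium the means were 5.17 ± 4.12 CPM in TNFdARE Treg and 18.9 ± 13.4 in WT Treg, with 4.39 ± 3.26 in TNFdARE Tconv and 10.9 in the WT Tconv library. Joint nodes held 9.33 ± 2.26 CPM of Ada in TNFdARE Treg and 11.6 ± 0.639 in WT Treg, with 14.4 ± 3.24 in TNFdARE Tconv and 10.8 ± 0.654 in WT Tconv. All 15 neighbouring groups overlapped in the order by mean, so these libraries rank no adjacent groups apart. The synovium had the widest spread, from 28.3 CPM in WT Treg of experiment A to 1.85 CPM in TNFdARE Treg of C.

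Adora2a (ENSMUSG00000020178, chr10:75316877-75334784, + strand), the gene of the main adenosine receptor of T cells, was highest in the ileum, then in the synovium, and lowest in the nodes, where all Treg groups of both nodes stood above all Tconv groups and the nodes interleaved. In the ileum Adora2a averaged 286.7 ± 22.6 CPM in TNFdARE Treg and 283.4 ± 64.7 in WT Treg, with 149.7 ± 5.39 in TNFdARE Tconv and 132.2 ± 16.9 in WT Tconv. The mesenteric node gave 48.1 ± 0.54 CPM in TNFdARE Treg and 38.6 ± 6.61 in WT Treg, with 21 ± 0.556 in TNFdARE Tconv and 21.6 ± 0.894 in WT Tconv. The lowest ileal Tconv library, at 117.7 CPM, was above the highest mesenteric Treg library, at 48.5 CPM. In the synovium the means were 116.6 ± 17.7 CPM in TNFdARE Treg and 103.9 ± 5.45 in WT Treg, with 63.4 ± 13.9 in TNFdARE Tconv and 58.3 in the WT Tconv library. Joint nodes held 50.2 ± 4.94 CPM of Adora2a in TNFdARE Treg and 36.9 ± 4.77 in WT Treg, with 22.3 ± 2.12 in TNFdARE Tconv and 22.8 ± 2.25 in WT Tconv. Within each site TNFdARE and WT Tconv overlapped, and Treg were above Tconv in every library. Of 15 neighbouring groups 10 overlapped. The other adenosine receptor genes were near 0, with highest group means of 2.71 CPM for Adora1, 7.75 CPM for Adora2b and 0.147 CPM for Adora3.

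On the authors' FPKM scale, which divides by gene length, levels can be set beside each other between genes. Medians over the 42 libraries were 52.6 FPKM for Nt5e, 27.9 for Adora2a, 18.7 for Dpp4, 9.57 for Cd38, 7 for Entpd1 and 4.18 for Ada. On that scale Nt5e led and Ada came last, the same first and last place as by CPM, with Adora2a above Dpp4. The gene lengths behind the FPKM are not given in the sources used here. The order of Adora2a and Dpp4 can depend on them.

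Treg were next compared with Tconv at each site, which asks how far the pathway belongs to Treg. Averaged over both genotypes, 5 of 6 genes passed the test in the mesenteric node, where 38.6% of all genes did, and 5 of 6 in the joint nodes, where 43.2% did (edgeR quasi-likelihood test, Benjamini-Hochberg adjusted over all genes tested). All 5 were higher in Treg, and Ada was the exception at both sites. In the ileum 5 of 6 passed against 14.8% of all genes, with Entpd1, Nt5e, Cd38 and Adora2a higher in Treg and Dpp4 lower. The median log2 fold change of the 6 genes was 1.72 in the mesenteric node, 1.88 in the joint nodes and 0.75 in the ileum, against medians over all genes tested of 0.023 in the mesenteric node, 0.002 in the joint nodes and 0.022 in the ileum. Markers of other cells differed between the cell types in the ileum: plasma cell markers (6 genes) averaged 2217.4 CPM in TNFdARE Treg and 1004.8 CPM in WT Treg, against 167.9 CPM in TNFdARE Tconv and 173.8 CPM in WT Tconv. Fibroblast markers (6 genes) stood at 908.3 CPM in TNFdARE Treg and 361.6 CPM in WT Treg, with 92.9 CPM in TNFdARE Tconv and 115.3 CPM in WT Tconv. Epithelial markers (7 genes) stood at 430.0 and 266.7 CPM in TNFdARE and WT Treg, against 66.6 and 40.5 CPM in TNFdARE and WT Tconv. All these markers were detected except Tnfrsf17, at 0 in TNFdARE of both cell types. Their part in the ileal values was not tested.

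Entpd1 was 28.2-fold higher in Treg of the mesenteric node (log2 fold change 4.82 ± 0.22, adjusted p = 1.1e-08) and 34-fold higher in the joint nodes (log2 fold change 5.09 ± 0.17, adjusted p = 1.3e-11), but 6.46-fold in the ileum (log2 fold change 2.69 ± 0.19, adjusted p = 5.9e-06). Cd38 stood at 9.27-fold in the mesenteric node (log2 fold change 3.21 ± 0.15, adjusted p = 1.9e-08), 16.5-fold in the joint nodes (log2 fold change 4.05 ± 0.14, adjusted p = 1.6e-11) and 1.39-fold in the ileum (log2 fold change 0.48 ± 0.12, adjusted p = 0.019). For Nt5e the ratio was 5.35-fold in the mesenteric node (log2 fold change 2.42 ± 0.14, adjusted p = 6.9e-08), 7.06-fold in the joint nodes (log2 fold change 2.82 ± 0.11, adjusted p = 7.4e-11) and 2.4-fold in the ileum (log2 fold change 1.26 ± 0.15, adjusted p = 2e-04). For these 3 enzymes of adenosine production the ratio was larger in each node than in the ileum. The difference between ileum and mesenteric node is tested in a fit of both sites described after the synovium, and that between ileum and joint nodes was not tested. For the receptor gene it was close across sites: Adora2a was 2.04-fold higher in ileal Treg (log2 fold change 1.03 ± 0.11, adjusted p = 1e-04), 2.03-fold in those of the mesenteric node (log2 fold change 1.02 ± 0.10, adjusted p = 8.6e-06) and 1.92-fold in joint node Treg (log2 fold change 0.94 ± 0.089, adjusted p = 6.9e-07).

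Dpp4 changed side between sites. In the mesenteric node Treg exceeded Tconv by 1.14-fold (log2 fold change 0.19 ± 0.060, adjusted p = 0.026) and in the joint nodes by 1.27-fold (log2 fold change 0.34 ± 0.049, adjusted p = 5.6e-05), while ileal Treg were 1.63-fold below Tconv (log2 fold change -0.70 ± 0.13, adjusted p = 0.0047). In the mesenteric node the means lay in opposite order in the genotypes: TNFdARE means were 134.2 CPM in Treg against 144.8 in Tconv and WT means 158.5 CPM in Treg against 113.8 in Tconv. Ada gave 0.25 ± 0.34 in the ileum (adjusted p = 0.67), -0.32 ± 0.16 in the mesenteric node (adjusted p = 0.15) and -0.24 ± 0.13 in the joint nodes (adjusted p = 0.15) on the log2 scale. The small mesenteric Dpp4 difference lost its call without WT Tconv A (adjusted p = 0.057), WT Tconv B (0.065), TNFdARE Tconv B (0.14), TNFdARE Treg B (0.064) or TNFdARE Treg C (0.075) and with no filter (0.098). That of Cd38 in the ileum was lost without TNFdARE Tconv A (0.051), TNFdARE Tconv C (0.061), WT Tconv C (0.053) or TNFdARE Treg B (0.05, above the threshold before rounding). A sheet number in the labels, above 32 in 10 libraries and tried as a covariate, also ended the ileal calls of Cd38 (0.085) and Dpp4 (0.063). Mesenteric Ada passed as lower in Treg without WT Treg B (0.041). In the fit of all 42 libraries the calls of Cd38 in the ileum (0.15) and of Dpp4 in the mesenteric node (0.79) and the joint nodes (0.21) were lost.

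In the synovium, tested in TNFdARE libraries because WT Tconv have 1 library, no member and 0% of the 17959 genes tested passed in the main edgeR fit. In that fit 632 genes had an unadjusted p under 0.05. The number called depended on the setting: edgeR with no filter called 6 genes and DESeq2 197, none of them a member. Entpd1 had 113.5, 160.7 and 75.7 CPM in Treg of experiments A, B and C, against 34.2 and 104.8 CPM in Tconv of A and B (log2 fold change 0.69 ± 0.52, adjusted p = 1). Nt5e had 426.1, 454.0 and 434.2 CPM in Treg, against 441.8 and 409.8 CPM in Tconv (log2 fold change -0.006 ± 0.47, adjusted p = 1). Both genes overlapped between the cell types. Adora2a, at 126.1, 96.1 and 127.6 CPM in Treg against 73.2 and 53.6 CPM in Tconv, did not overlap (log2 fold change 0.84 ± 0.26, adjusted p = 1), nor did Dpp4, at 7.75, 9.15 and 27.4 CPM in Treg against 39.5 and 39.4 CPM in Tconv (log2 fold change -1.47 ± 0.55, adjusted p = 1). Both passed in a fit of all 42 libraries (adjusted p = 0.0019 for Adora2a and 0.0021 for Dpp4), in which 654 genes were called. Foxp3 in these Tconv stood at 43.7% of the Treg level, and fibroblast markers at 1481.2 to 6364.8 CPM in Treg against 945.2 and 1970.2 CPM in Tconv. Their part in the result was not tested.

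**Figure D2:**
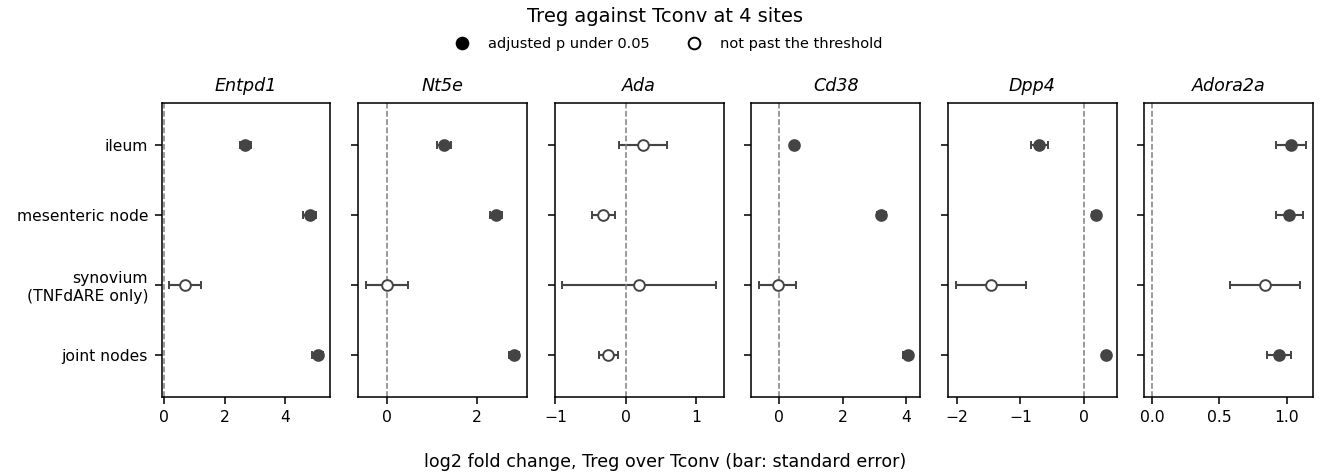
Log2 fold change of Treg over Tconv for each gene (columns) at each site (rows), with the standard error as a bar and filled points where the adjusted p was below 0.05. Entpd1 reaches 4.82 and 5.09 in the nodes and 2.69 in the ileum, while Adora2a stays between 0.84 and 1.03 and no point is filled in the synovium.

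The difference between ileum and mesenteric node in the Treg to Tconv ratio was itself tested in one fit of both sites, where 6.25% of all genes passed and 4 of 6 members did, all with the smaller ratio in the ileum. The ratio of Cd38 was 6.69-fold smaller in the ileum (log2 fold change -2.74 ± 0.21, adjusted p = 2.1e-07), that of Entpd1 4.38-fold (log2 fold change -2.13 ± 0.32, adjusted p = 3e-04), that of Nt5e 2.24-fold (log2 fold change -1.16 ± 0.21, adjusted p = 0.0015) and that of Dpp4 1.86-fold (log2 fold change -0.90 ± 0.16, adjusted p = 0.0014). For Adora2a the difference was 0.003 ± 0.16 on the log2 scale (adjusted p = 1), and for Ada 0.56 ± 0.39 (adjusted p = 0.53). The 4 calls held when any library was left out. In a fit of all 42 libraries Dpp4 missed the threshold (adjusted p = 0.051). Foxp3 in TNFdARE Tconv stood at 9.41% of the Treg level in the ileum and 2.59% in the mesenteric node. In WT it stood at 1.41% and 0.657%. The part of Foxp3-expressing cells among Tconv in these ratios was not tested.

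TNFdARE were then set against WT within each cell type and site, the comparison named in the design of the series. In Tconv of the joint nodes 4 of 6 genes were higher in TNFdARE, against 2.79% of all genes called in either direction, and in Tconv of the mesenteric node 3 of 6, against 2.36%. Treg had 1 of 6 in the joint nodes, against 5.70% of all genes, and 1 of 6 in the mesenteric node, against 5.68%, and that gene was Cd38 at both. No member passed in ileal Treg (0.729% of all genes), ileal Tconv (1.31%) or synovial Treg (0.156%). No member passed as lower in TNFdARE. At an unadjusted p under 0.05, 0 members of ileal Treg, 1 of ileal Tconv (Entpd1) and 1 of synovial Treg (Dpp4) were counted, and DESeq2 called 0 in ileal Treg and those same genes in the other groups.

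**Figure D3:**
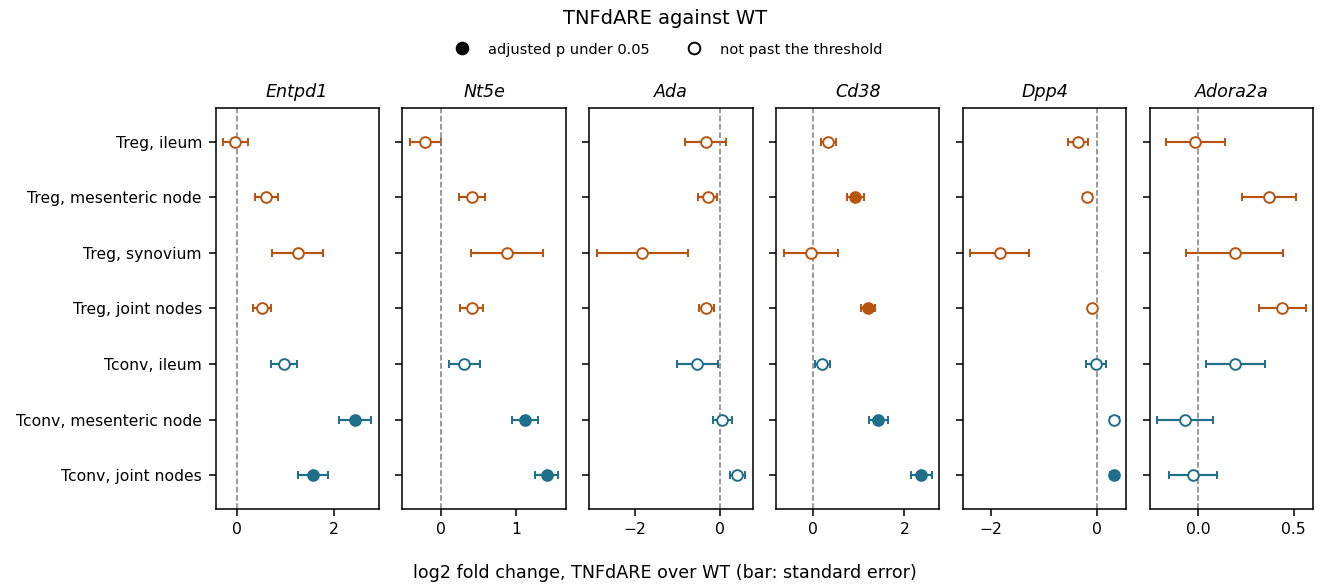
Log2 fold change of TNFdARE over WT for each gene (columns) in the 7 tested groups (rows), Treg in orange and Tconv in blue, with the standard error as a bar and filled points where the adjusted p was below 0.05; the horizontal scale differs between columns. Filled points lie in the nodes alone, up to 2.44 for Entpd1 and 2.37 for Cd38 in Tconv.

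Cd38 was the gene that was higher in all 4 node groups. In joint node Tconv it had 5.33, 5.24 and 4.61 CPM in TNFdARE libraries of experiments A, B and C, against 0.713, 0.689 and 1.65 CPM in WT (122, 104 and 119 counts, against 18, 15 and 30). Every TNFdARE library was above every WT library, a 5.17-fold difference (log2 fold change 2.37 ± 0.23, adjusted p = 2.6e-05). Joint node Treg held 57.9, 54.5 and 54.4 CPM in TNFdARE, against 20.5, 23.8 and 27.8 CPM in WT, 2.31-fold higher without overlap (log2 fold change 1.21 ± 0.16, adjusted p = 0.00039). In mesenteric Tconv the values were 12 and 17.2 CPM in TNFdARE of experiments B and C, against 5.21, 4.11 and 6.51 CPM in WT of A, B and C, 2.7-fold higher (log2 fold change 1.44 ± 0.22, adjusted p = 0.0042). Mesenteric Treg had 123.1 and 96.6 CPM in TNFdARE, against 59.9, 50.5 and 69.4 CPM in WT, 1.9-fold higher (log2 fold change 0.93 ± 0.19, adjusted p = 0.014). These groups did not overlap either. The mesenteric Treg call was lost without TNFdARE B (adjusted p = 0.19) or WT B (0.064) and in the fit of all 42 libraries (0.49), the mesenteric Tconv call without TNFdARE C (0.054), and the joint node Treg call in the fit of all 42 libraries (0.075).

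Nt5e rose in Tconv of both nodes. Joint node Tconv had 79.5, 76.2 and 99.9 CPM in TNFdARE of experiments A, B and C, against 25.9, 28.5 and 43.6 CPM in WT, 2.66-fold higher (log2 fold change 1.41 ± 0.16, adjusted p = 8.3e-05). In mesenteric Tconv the values were 183.7 and 260.9 CPM in TNFdARE of B and C, against 90.1, 81.3 and 129.5 CPM in WT, 2.18-fold higher (log2 fold change 1.12 ± 0.18, adjusted p = 0.0058). TNFdARE and WT did not overlap at either node. In joint node Treg, 415.9, 417.1 and 439.9 CPM in TNFdARE stood against 285.8, 296.8 and 372.3 CPM in WT (log2 fold change 0.41 ± 0.15, adjusted p = 0.13), and with the experiment as a replicate block this passed (adjusted p = 0.0076). It also passed with no filter (0.0029), in a fit of these 2 groups alone (0.029) and by DESeq2 (0.028). In mesenteric Treg the difference was 0.41 ± 0.18 on the log2 scale (adjusted p = 0.23), which passed with no filter (0.0078). The mesenteric Tconv call was lost without TNFdARE C (0.074) and in the fit of all 42 libraries (0.087).

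Entpd1, with few counts in node Tconv, had 4.16 and 8.92 CPM in TNFdARE mesenteric Tconv of experiments B and C, against 1.21, 1.68 and 0.651 CPM in WT of A, B and C (98 and 181 counts, against 30, 40 and 17). That is 5.41-fold higher (log2 fold change 2.44 ± 0.34, adjusted p = 0.0026), or 1.84 on the log2 scale without TNFdARE C (adjusted p = 0.024). Joint node Tconv had 2.97, 1.76 and 3.88 CPM in TNFdARE, against 0.713, 0.781 and 1.6 CPM in WT, 2.96-fold higher (log2 fold change 1.56 ± 0.30, adjusted p = 0.0091). The groups did not overlap at either node, although TNFdARE B and WT C came close in the joint nodes. The joint node call was lost without WT A (adjusted p = 0.075), WT B (0.062) or TNFdARE C (0.059), in a fit of these 2 groups alone (0.24) and in the fit of all 42 libraries (0.16). In ileal Tconv Entpd1 had 18.2, 19.3 and 15.5 CPM in TNFdARE, against 9.39, 12.6 and 5.54 CPM in WT (log2 fold change 0.96 ± 0.26, adjusted p = 0.16), which passed with the replicate block (adjusted p = 0.044) and by DESeq2 (0.021). In joint node Treg, 67.1, 68.6 and 71.1 CPM in TNFdARE stood against 42, 49.4 and 53.2 CPM in WT (log2 fold change 0.51 ± 0.18, adjusted p = 0.12), and this too passed with the block (0.035). The same held with no filter (0.0021), in a fit of these 2 groups alone (0.0076) and by DESeq2 (0.027). In mesenteric Treg Entpd1 gave 0.59 ± 0.23 on the log2 scale (adjusted p = 0.18), which passed with no filter (0.00083) and in the 2 groups alone (0.014).

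Dpp4 differed least of the genes that passed: joint node Tconv had 121.4, 121.3 and 130.8 CPM in TNFdARE, against 94.3, 101.0 and 107.4 CPM in WT, 1.24-fold higher without overlap (log2 fold change 0.31 ± 0.070, adjusted p = 0.025). This call was lost when any of 9 of the 12 joint node libraries was left out, namely TNFdARE Tconv A (adjusted p = 0.12) or C (0.16), WT Tconv A (0.16), B (0.052) or C (0.059), TNFdARE Treg A (0.053), B (0.056) or C (0.051), or WT Treg A (0.053), and also with no filter (0.097), in a fit of these 2 groups alone (0.13) and in the fit of all 42 libraries (1). In mesenteric Tconv the difference was 0.32 ± 0.084 on the log2 scale (adjusted p = 0.076), and DESeq2 called it (0.01). Adora2a had 54.8, 50.7 and 45 CPM in TNFdARE Treg of the joint nodes, against 33.7, 34.5 and 42.4 CPM in WT (log2 fold change 0.44 ± 0.12, adjusted p = 0.051), and passed with the replicate block (adjusted p = 0.036), RLE factors (0.035), no filter (0.014), the sheet number as a covariate (0.032), these 2 groups alone (0.034) and DESeq2 (0.0071). It also passed without WT Treg C (0.041), WT Tconv B (0.048) or WT Tconv C (0.044). The groups did not overlap. In Tconv the receptor gene gave -0.067 ± 0.15 in the mesenteric node (adjusted p = 0.95) and -0.027 ± 0.13 in the joint nodes (adjusted p = 0.99). Ada passed nowhere, and its log2 fold changes ran from -1.83 ± 1.08 in synovial Treg to 0.41 ± 0.18 in joint node Tconv.

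Joint node Tconv hold the 2 libraries with the most genes detected. Without WT C the log2 fold change was 2.80 (adjusted p = 2.9e-06) for Cd38, 1.61 (adjusted p = 1.2e-05) for Nt5e and 1.93 (adjusted p = 0.0031) for Entpd1, and without TNFdARE B it was 2.38 (adjusted p = 0.00012), 1.51 (adjusted p = 0.00011) and 1.82 (adjusted p = 0.0007) for the same genes, all past the threshold.

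In synovial Treg no gene of the 6 passed. Entpd1 had 113.5, 160.7 and 75.7 CPM in TNFdARE of experiments A, B and C, against 41.2 and 58.4 CPM in WT of A and B (log2 fold change 1.24 ± 0.53, adjusted p = 0.5). Dpp4 had 7.75, 9.15 and 27.4 CPM in TNFdARE, against 60.4 and 46.7 CPM in WT (log2 fold change -1.84 ± 0.55, adjusted p = 0.34). Neither gene overlapped between genotypes, and both passed in the fit of all 42 libraries (adjusted p = 0.036 for Entpd1 and 2.1e-05 for Dpp4), as did Ada as lower in TNFdARE (0.013), a fit in which 3512 genes were called. Nt5e had 426.1, 454.0 and 434.2 CPM in TNFdARE, against 99.8 and 380.0 CPM in WT (log2 fold change 0.89 ± 0.48, adjusted p = 0.54), and passed without WT B (2.14 on the log2 scale, adjusted p = 0.006). Fibroblast markers moved with genotype here, at 1481.2 to 6364.8 CPM in TNFdARE libraries against 13499.9 to 16346.5 CPM in WT, with all 6 markers detected in both, and their part in these values was not tested. Synovial Tconv, with 1 WT library, had no test. Entpd1 was at 34.2 and 104.8 CPM in TNFdARE A and B against 10.2 in WT A. Nt5e was at 441.8 and 409.8 against 111.5, and Dpp4 at 39.5 and 39.4 against 156.6. Cd38 was at 26 and 39.1 against 24.7, Adora2a at 73.2 and 53.6 against 58.3, and Ada at 2.09 and 6.7 against 10.9. That WT library held 1123.1 CPM of CD8 and NK markers, against 42 and 93.8 CPM in TNFdARE. Its Foxp3 was 31.1 CPM, against 618.5 and 615.4 CPM. The part of these markers was not tested.

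Treg markers moved with genotype in the Tconv sorts. In joint node Tconv Foxp3 had 34.9, 30.3 and 39 CPM in TNFdARE of experiments A, B and C, against 6.34, 6.29 and 7.71 CPM in WT, and in mesenteric Tconv 21.4 and 36.6 CPM in TNFdARE, against 7.11, 6.17 and 6.51 CPM in WT. All 4 Treg markers were detected in both genotypes, and their sum was 93.4 to 119.7 CPM in TNFdARE joint node Tconv against 31.3 to 39 CPM in WT, and 115.0 to 195.6 CPM in TNFdARE mesenteric Tconv against 44.3 to 71 CPM in WT. The sums did not overlap. As a share of the level in TNFdARE joint node Treg, the TNFdARE minus WT difference in Tconv was 2.45% for Foxp3, 2.67% for Entpd1, 7.27% for Cd38 and 12.4% for Nt5e. In the mesenteric node the same shares were 2% for Foxp3, 5.72% for Entpd1, 8.49% for Cd38 and 13.5% for Nt5e, and in the ileum 8.37% for Foxp3 and 10.5% for Entpd1. The other ileal Treg markers stood at 30.9% (Ctla4), 9.5% (Ikzf2) and 9.18% (Il2ra). Entpd1 thus lay above Foxp3, Ikzf2 and Il2ra there and below Ctla4. In WT ileal Tconv Ctla4 was at 43.4% of the WT ileal Treg level, where Foxp3 was at 1.41%. Other Treg markers gave 4.72% (Ctla4), 3.66% (Ikzf2) and 0.965% (Il2ra) in the joint nodes, and 5.51% (Ctla4), 6.88% (Ikzf2) and 1.43% (Il2ra) in the mesenteric node. The shares of Nt5e and Cd38 lay above those of all 4 markers at both nodes, and that of Entpd1 within their range. Dpp4 (17.3% in the joint nodes, 23.1% in the mesenteric node) and Ada (38.6% and 7.75%) also lay above all 4. Of these, Ada was called at neither node and Dpp4 in the joint nodes alone. Adora2a gave -0.996% and -1.25%. In the ileum Nt5e (9.37%) and Cd38 (8.47%) lay within the marker range. In WT joint nodes Tconv already held Nt5e at 10.3% of the Treg level and Foxp3 at 0.599%. How far Foxp3-expressing cells in the Tconv sorts take part in these values was not tested. Mean sums of B cell, myeloid and fibroblast markers in node Tconv were at most 8.49, 8.17 and 2.56 CPM. Mean Cd38 there was 1.02 to 14.6 CPM and mean Entpd1 1.03 to 6.54 CPM. In mesenteric Tconv B cell markers were at 6.19 and 10.8 CPM in TNFdARE against 2.49 to 6.38 CPM in WT, which overlapped. Joint node WT C held 7.6 CPM of fibroblast and 6.45 CPM of endothelial markers, and TNFdARE B 3.78 and 5.9 CPM. The part of these markers was not tested. CD8 and NK markers (5 genes) were at 33.6 to 41.7 CPM in TNFdARE joint node Tconv against 43.8 to 51.9 CPM in WT, without overlap. They were at 34.9 and 36.1 CPM in TNFdARE mesenteric Tconv against 34.1 to 42.1 CPM in WT.

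Plasma cell markers moved with genotype in mesenteric Tconv, at 9.9 and 18.2 CPM in TNFdARE against 0.965 to 7.05 CPM in WT, without overlap and with Tnfrsf17 at 0 in WT. CD38 is a marker of plasma cells in humans, while these cells are from mouse. In joint node Tconv they were at 0.581 to 1.61 CPM in TNFdARE against 0.965 to 2.53 CPM in WT, which overlapped. In joint node Treg, where Cd38 was also higher, plasma cell markers were at 5.86 to 8.78 CPM in TNFdARE against 3.14 to 4.72 CPM in WT, with Tnfrsf17 at 0 in both. B cell markers (7 genes) there were at 25.8 to 29.3 CPM in TNFdARE against 19.3 to 21.2 CPM in WT, all detected. CD8 and NK markers were at 18.6 to 19.9 CPM in TNFdARE against 11.4 to 16.6 CPM in WT, with Ncr1 at 0 in both. None of these sums overlapped in joint node Treg. In mesenteric Treg B cell markers were at 32.7 and 40.9 CPM in TNFdARE against 22.5 to 30.5 CPM in WT, without overlap. Plasma cell markers overlapped, at 5.17 and 8.59 CPM in TNFdARE against 2.08 to 7.79 CPM in WT. The part of these markers in the Cd38 values was not tested.

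**Figure D4:**
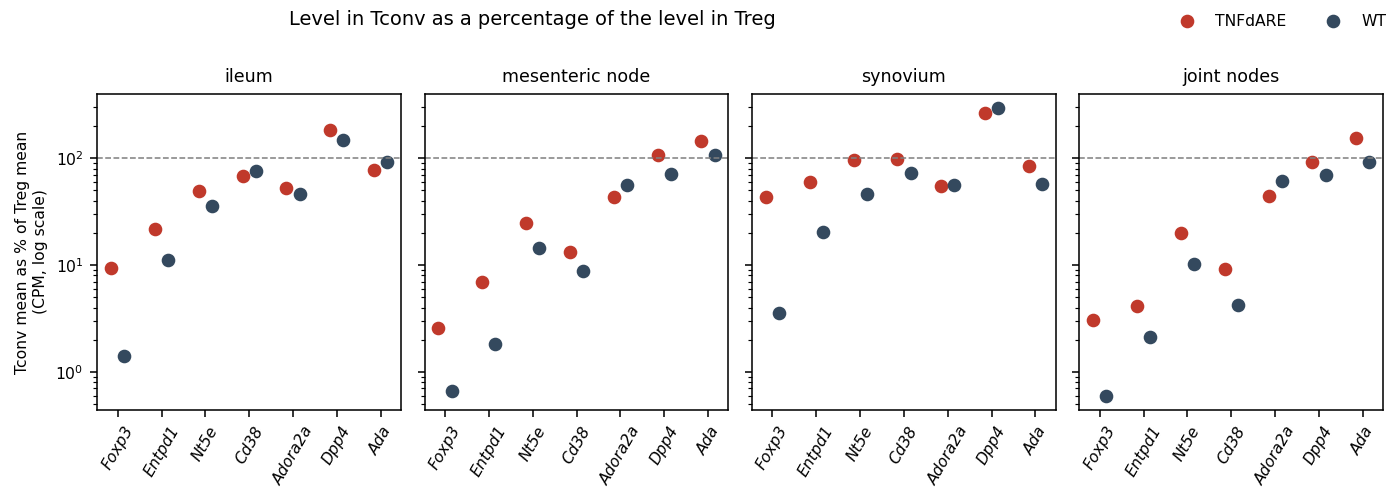
Mean CPM in Tconv as a percentage of the mean in Treg (log scale) for Foxp3 and the 6 genes at each site, TNFdARE in red and WT in dark blue, with a dashed line at 100%. Foxp3 is at 3.05% in TNFdARE and 0.599% in WT joint nodes and at 43.7% in TNFdARE synovium, while Dpp4 lies between 69.5% and 292.7% and Ada between 57.6% and 153.9%.

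Whether the genotype difference itself differed between Treg and Tconv was tested as an interaction. No member passed in the ileum (0.0188% of all genes), the mesenteric node (0.209%) or the joint nodes (0.449%), so a call in Tconv and none in Treg is not a shown difference between them. The nearest were Nt5e in the joint nodes (2-fold smaller in Treg, adjusted p = 0.07), Dpp4 there (log2 difference -0.41 ± 0.098, adjusted p = 0.12), Cd38 there (-1.16 ± 0.28, adjusted p = 0.13) and Entpd1 in the mesenteric node (-1.84 ± 0.42, adjusted p = 0.14), each with the smaller TNFdARE effect in Treg. With the replicate block Nt5e in the joint nodes passed (adjusted p = 0.0016), and it also passed without WT Tconv C (0.0069) or TNFdARE Tconv B (0.05, below the threshold before rounding), the libraries with the most genes detected. Without that WT library Cd38 passed as well (0.0088), and Entpd1 in the mesenteric node passed without TNFdARE Tconv B (0.032). At an unadjusted p under 0.05 this edgeR fit counted 1 member in the ileum, 3 in the mesenteric node and 6 in the joint nodes, and DESeq2 called 0 in the ileum and Dpp4 in the mesenteric node (adjusted p = 0.0084). In the joint nodes it called Nt5e (0.00084), Cd38 (0.0079) and Dpp4 (0.023). With no filter Nt5e (2.7e-09), Cd38 (0.00098) and Entpd1 (0.0024) passed in the joint nodes. Entpd1 (3.7e-12) and Nt5e (0.00055) passed so in the mesenteric node. Within Treg, no member passed for a difference of the genotype effect between ileum and mesenteric node (0.00598% of all genes) or between mesenteric and joint nodes (0.351%), with 1 and 0 members at an unadjusted p under 0.05 and none called by DESeq2.

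Sites were compared within a cell type, averaged over genotypes, except that Tconv comparisons with the synovium used TNFdARE libraries alone. Of the 6 genes, 5 passed between ileum and mesenteric node in Treg, where 29.2% of all genes did, and 6 in Tconv, where 61.0% did. Adora2a was 6.6-fold higher in Treg of the ileum than of the mesenteric node (log2 fold change 2.72 ± 0.15, adjusted p = 2e-06) and 6.61-fold higher in Tconv of the ileum than of that node (log2 fold change 2.73 ± 0.078, adjusted p = 2.8e-10). The receptor gene is thus the one with the largest site difference in Treg and a value close to it in Tconv. Cd38 was 1.61-fold higher in ileal Treg (log2 fold change 0.69 ± 0.13, adjusted p = 0.0047) and 10.8-fold higher in ileal Tconv (log2 fold change 3.43 ± 0.15, adjusted p = 5.5e-09). Nt5e was 1.44-fold higher in ileal Treg (log2 fold change 0.53 ± 0.14, adjusted p = 0.018) and 3.25-fold in ileal Tconv (log2 fold change 1.70 ± 0.15, adjusted p = 1.5e-06). Entpd1 gave 0.073 ± 0.13 on the log2 scale in Treg (adjusted p = 0.71), while in Tconv it was 4.6-fold higher in the ileum (log2 fold change 2.20 ± 0.29, adjusted p = 4.4e-05). Ada was lower in the ileum, 1.89-fold in Treg (log2 fold change -0.92 ± 0.28, adjusted p = 0.034) and 2.78-fold in Tconv (log2 fold change -1.47 ± 0.26, adjusted p = 0.00042), and Dpp4 was 1.49-fold lower in ileal Treg (log2 fold change -0.58 ± 0.14, adjusted p = 0.015) but 1.25-fold higher in ileal Tconv (log2 fold change 0.33 ± 0.067, adjusted p = 0.0012).

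The ileal Treg call of Ada missed the threshold with the replicate block (adjusted p = 0.057) and when any of 7 of the 11 libraries was left out (0.052 to 0.15: ileal WT A and TNFdARE C, and all 5 of the mesenteric node), and that of Nt5e (0.11) and of Dpp4 (0.063) without mesenteric TNFdARE C. In the fit of all 42 libraries Ada (0.052) and Nt5e (0.052) in Treg and Dpp4 (0.21) in Tconv did not pass. With the sheet number as a covariate Ada (0.17), Nt5e (0.1) and Dpp4 (0.1) missed it. In TNFdARE libraries alone the ileal Treg calls of Nt5e (0.52), Cd38 (0.23), Ada (0.21) and Dpp4 (0.11) did not pass, and in WT alone those of Ada (0.11) and Dpp4 (0.086) did not. The call of Dpp4 in ileal Tconv did not pass in TNFdARE alone (0.25). In ileal Tconv the difference of Entpd1 was 1.46 on the log2 scale in TNFdARE and 2.95 in WT, and that of Cd38 2.81 in TNFdARE and 4.05 in WT. Ileal Treg libraries held 131.4 to 6107.9 CPM of plasma cell markers in TNFdARE and 358.8 to 2023.6 CPM in WT, against at most 8.59 CPM in mesenteric Treg, with Tnfrsf17 at 0 in TNFdARE of both sites. CD38 marks plasma cells in humans, while these cells are from mouse. The part of plasma cell RNA in the ileal Treg value of Cd38 was not tested. Ileal Tconv libraries held 76.2 to 261.7 CPM of these markers, against 0.965 to 18.2 CPM in mesenteric Tconv. Their part in the Tconv value was not tested either.

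Between synovium and joint nodes, 2 of 6 genes passed in Treg, where 37.7% of all genes did: Adora2a was 2.53-fold higher in synovial Treg (log2 fold change 1.34 ± 0.12, adjusted p = 3.2e-05) and Dpp4 5.06-fold lower (log2 fold change -2.34 ± 0.32, adjusted p = 0.00039). The Dpp4 difference was -3.23 on the log2 scale in TNFdARE libraries and -1.44 in WT. Fibroblast markers were at 1481.2 to 16346.5 CPM in synovial Treg, against 0.736 to 3.25 CPM in joint node Treg. T cell markers averaged 3838.3 CPM (TNFdARE) and 3093.5 CPM (WT) in synovial Treg, against 4844.4 and 4648.4 CPM in joint node Treg. The part of these markers in the Treg values was not tested. In TNFdARE Tconv all 6 passed, against 31.3% of all genes. Entpd1 was 24.1-fold higher in synovial Tconv (log2 fold change 4.59 ± 0.53, adjusted p = 0.00021), with Cd38 6.5-fold (log2 fold change 2.70 ± 0.34, adjusted p = 0.00034), Nt5e 5.05-fold (log2 fold change 2.33 ± 0.19, adjusted p = 2.9e-05) and Adora2a 2.88-fold higher (log2 fold change 1.53 ± 0.17, adjusted p = 0.00018), while Dpp4 was 3.12-fold lower (log2 fold change -1.64 ± 0.10, adjusted p = 6.1e-06) and Ada 3.2-fold lower (log2 fold change -1.68 ± 0.45, adjusted p = 0.02). These Tconv libraries hold Foxp3 at 43.7% of the synovial Treg level, against 3.05% in TNFdARE joint nodes. They also held 945.2 and 1970.2 CPM of fibroblast markers, all detected, against 0.35 to 3.78 CPM in TNFdARE joint node Tconv. Their endothelial markers summed to 129.8 and 174.3 CPM (6 genes), all detected, against 0.0388 to 5.9 CPM in those node cells. The part of these markers in the synovial values was not tested. On the log2 scale, leaving out synovial TNFdARE Tconv A gave 5.18 for Entpd1 and -1.07 for Ada, and leaving out B gave 3.57 and -2.75; the Ada call was lost without joint node TNFdARE Tconv A (adjusted p = 0.056) or B (0.057). In Treg, Nt5e passed as lower in the synovium without WT B (-0.83 on the log2 scale, adjusted p = 0.00015), and Entpd1 as higher without TNFdARE C (0.50 on the log2 scale, adjusted p = 0.019).

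Set against the synovium, ileal Treg were higher for 4 of 6 genes, where 7.42% of all genes passed: Cd38 4-fold (log2 fold change 2.00 ± 0.31, adjusted p = 0.0046), Nt5e 3.64-fold (log2 fold change 1.87 ± 0.31, adjusted p = 0.006), Dpp4 3.56-fold (log2 fold change 1.83 ± 0.35, adjusted p = 0.013) and Adora2a 2.65-fold (log2 fold change 1.41 ± 0.15, adjusted p = 0.00075). Nt5e gave 2.49 on the log2 scale without synovial WT Treg B, and did not pass in TNFdARE libraries alone (1.34, adjusted p = 0.13). Dpp4 gave 2.59 in TNFdARE and 1.07 in WT, where it did not pass (adjusted p = 0.29), and neither did Cd38 in WT (0.077). In TNFdARE Tconv 4 of 6 passed, against 21.2% of all genes: Dpp4 4.21-fold (log2 fold change 2.08 ± 0.12, adjusted p = 5.5e-05), Cd38 3.25-fold (log2 fold change 1.70 ± 0.22, adjusted p = 0.0014) and Adora2a 2.47-fold (log2 fold change 1.30 ± 0.17, adjusted p = 0.0013) were higher in the ileum and Entpd1 3.75-fold lower (log2 fold change -1.91 ± 0.44, adjusted p = 0.016). Entpd1 gave -2.49 without synovial Tconv A and lost its call without synovial Tconv B (-0.90, adjusted p = 0.09), ileal Tconv A (0.053) or ileal Tconv C (0.061). Foxp3 averaged 616.9 CPM in TNFdARE synovial Tconv and 146.3 CPM in TNFdARE ileal Tconv. Fibroblast markers were at 945.2 and 1970.2 CPM in those synovial Tconv, against 24 to 162.4 CPM in the ileal ones. In Treg they were at 1481.2 to 16346.5 CPM in the synovium and 15.5 to 2362.7 CPM in the ileum. Plasma cell markers went the other way in Treg, at 131.4 to 6107.9 CPM in the ileum and 7.29 to 67.4 CPM in the synovium. The part of these markers was not tested.

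Of the nodes, the mesenteric one held more RNA of adenosine-producing enzymes, Cd38 and Nt5e in both cell types and Entpd1 in Treg. In Treg 3 of 6 genes passed, against 12.8% of all genes: Cd38 was 2.24-fold (log2 fold change 1.17 ± 0.10, adjusted p = 4.2e-06), Nt5e 2.19-fold (log2 fold change 1.13 ± 0.079, adjusted p = 6.6e-07) and Entpd1 1.36-fold higher (log2 fold change 0.45 ± 0.070, adjusted p = 0.00083) than in joint node Treg. In Tconv 2 of 6 passed, against 3.74% of all genes, Cd38 at 3.96-fold (log2 fold change 1.99 ± 0.21, adjusted p = 0.00017) and Nt5e at 2.87-fold (log2 fold change 1.52 ± 0.15, adjusted p = 8.1e-05), and all these calls held when any library was left out. Dpp4 in Tconv (0.21 ± 0.059 on the log2 scale, adjusted p = 0.068) passed with the replicate block (0.025) and by DESeq2 (0.01). Adora2a gave 0.016 ± 0.10 on the log2 scale in Treg (adjusted p = 0.94) and -0.062 ± 0.084 in Tconv (adjusted p = 0.74). Entpd1 in Treg did not pass in the fit of all 42 libraries (adjusted p = 0.92). In Tconv it gave 0.71 ± 0.34 on the log2 scale in the main fit (adjusted p = 0.29). Plasma cell markers in TNFdARE Tconv were at 9.9 and 18.2 CPM in the mesenteric node and 0.581 to 1.61 CPM in the joint nodes. Treg markers in Tconv averaged 155.3 CPM against 107.1 CPM in TNFdARE, and 57.5 CPM against 34.2 CPM in WT. The part of these markers was not tested.

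**Figure D5:**
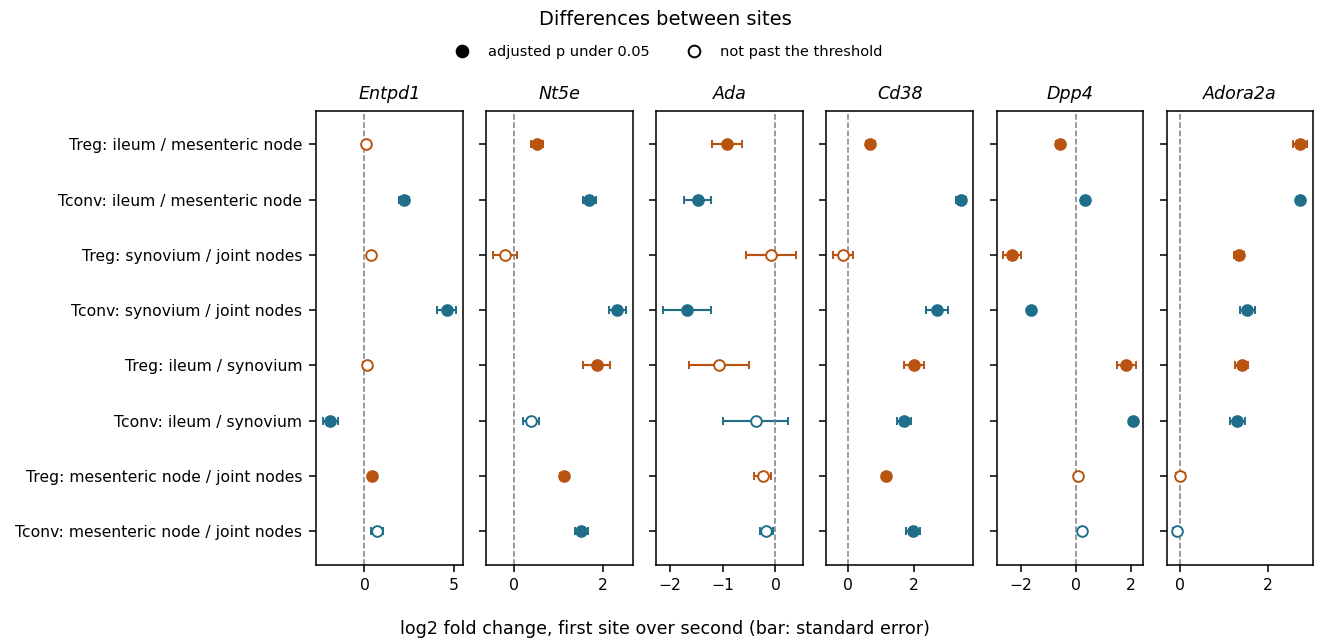
Log2 fold change of the first site over the second for each gene (columns) in Treg (orange) and Tconv (blue), with the standard error as a bar and filled points where the adjusted p was below 0.05; the horizontal scale differs between columns. Adora2a is at 2.72 in Treg and 2.73 in Tconv for ileum over mesenteric node, and Entpd1 reaches 4.59 in synovial Tconv.

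Other genes of the pathway were read from lists of ectonucleotidases (15 genes), NAD ectoenzymes (7), adenosine receptors (4), nucleotide receptors with the release channel (16), adenosine transport and intracellular enzymes (20) and cAMP signalling (32), members included, plus the dipeptidyl peptidase family (8). In TNFdARE Tconv of the joint nodes 3 of 4 tested NAD ectoenzyme genes rose and 0 fell (median log2 fold change 0.96, against 0.008 over all genes), namely Cd38, the ADP-ribosyltransferase gene Art2b at 2.1-fold (log2 fold change 1.07 ± 0.15, adjusted p = 0.00054) and Art4 at 1.81-fold (log2 fold change 0.85 ± 0.17, adjusted p = 0.013). P2rx7, an ATP-gated channel that the mouse Art2b product can activate by way of NAD, rose 2.34-fold (log2 fold change 1.23 ± 0.20, adjusted p = 0.002), 1 of 7 tested nucleotide receptor genes. In mesenteric Tconv 2 of 4 NAD ectoenzyme genes rose, Cd38 and Art2b at 1.63-fold (log2 fold change 0.71 ± 0.098, adjusted p = 0.0026), with P2rx7 at 1.82-fold (log2 fold change 0.86 ± 0.20, adjusted p = 0.044). Of the ectonucleotidases, 2 of 10 tested rose and 0 fell in Tconv of each node, and these were the members Entpd1 and Nt5e. Of all genes, 2.79% passed in joint node Tconv and 2.36% in mesenteric Tconv, the shares to set beside all these list counts. No gene of adenosine transport or intracellular metabolism, of 15 tested, passed in Tconv of either node. Of 28 cAMP signalling genes 1 rose in joint node Tconv, the phosphodiesterase gene Pde8a at 1.78-fold (log2 fold change 0.83 ± 0.17, adjusted p = 0.014), and 0 in mesenteric Tconv. These cAMP counts are near the shares of all genes.

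In TNFdARE mesenteric Treg 3 of 28 cAMP signalling genes rose and 0 fell, where 5.68% of all genes passed. They were Prkar1a, a regulatory subunit of protein kinase A, at 1.37-fold (log2 fold change 0.46 ± 0.092, adjusted p = 0.014), Crem, a cAMP-responsive transcription factor gene, at 1.5-fold (log2 fold change 0.58 ± 0.14, adjusted p = 0.037), and the phosphodiesterase gene Pde4b at 1.34-fold (log2 fold change 0.42 ± 0.11, adjusted p = 0.047). Panx1, the ATP release channel, rose 1.26-fold (log2 fold change 0.34 ± 0.085, adjusted p = 0.04). Of 10 ectonucleotidase genes 1 rose there, Enpp5 at 2.51-fold (log2 fold change 1.33 ± 0.17, adjusted p = 0.001). Of 6 dipeptidyl peptidase family genes 1 fell, Fap (adjusted p = 0.031), which was near 0 with a mean of 0.0414 CPM in TNFdARE. In joint node Treg Prkar1a rose 1.19-fold (log2 fold change 0.25 ± 0.064, adjusted p = 0.033), while Pde3b fell 1.89-fold (log2 fold change -0.92 ± 0.24, adjusted p = 0.04), Rapgef4, a cAMP-activated exchange factor gene, fell 1.59-fold (log2 fold change -0.67 ± 0.15, adjusted p = 0.019) and the ectonucleotidase gene Entpd6 fell 1.21-fold (log2 fold change -0.28 ± 0.069, adjusted p = 0.031). The nucleoside transporter gene Slc28a2 fell 1.33-fold (log2 fold change -0.41 ± 0.072, adjusted p = 0.0038). At this site 5.70% of all genes passed. No listed gene passed in ileal Treg (0.729% of all genes) or synovial Treg (0.156%). In ileal Tconv (1.31%) 1 did, the phosphodiesterase gene Pde4a, higher at 3.91-fold (log2 fold change 1.97 ± 0.36, adjusted p = 0.024).

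The lists were also read between cell types and sites. Pde3b, whose product breaks down cAMP and is known to be repressed by Foxp3, was lower in Treg of the ileum by 35-fold (log2 fold change -5.13 ± 0.26, adjusted p = 4.8e-07), of the mesenteric node by 24.9-fold (log2 fold change -4.64 ± 0.24, adjusted p = 3.9e-08) and of the joint nodes by 26.3-fold (log2 fold change -4.72 ± 0.17, adjusted p = 2.9e-11). Of the cAMP genes tested, 4 of 31 were higher and 6 lower in ileal Treg than Tconv (14.8% of all genes passed). The counts were 6 of 28 higher and 8 lower in mesenteric Treg (38.6%) and 7 of 28 higher and 10 lower in joint node Treg (43.2%). P2rx7 was lower in ileal Treg by 1.55-fold (log2 fold change -0.64 ± 0.12, adjusted p = 0.005). It was higher in Treg by 2.87-fold (log2 fold change 1.52 ± 0.14, adjusted p = 5e-06) in the mesenteric node and by 5.16-fold (log2 fold change 2.37 ± 0.14, adjusted p = 3.7e-09) in the joint nodes. Between ileum and mesenteric node 13 of 30 cAMP genes were higher and 3 lower in Tconv, where 61.0% of all genes passed, and 8 higher and 2 lower in Treg, where 29.2% did. The listed share is thus below the background in Tconv and near it in Treg. Crem led in both, higher in ileal Tconv by 24-fold (log2 fold change 4.58 ± 0.19, adjusted p = 2.9e-09) and in ileal Treg by 18.7-fold (log2 fold change 4.22 ± 0.19, adjusted p = 1.1e-06), beside Adora2a. Pde4d was higher in ileal Tconv by 4.16-fold (log2 fold change 2.06 ± 0.10, adjusted p = 1.5e-08) and in ileal Treg by 5.27-fold (log2 fold change 2.40 ± 0.11, adjusted p = 1.2e-06). The intracellular list went the other way, with 10 of 15 tested genes lower and 3 higher in ileal Tconv, and 7 lower and 0 higher in ileal Treg.

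The genes whose group means were most like those of each member were ranked by Pearson's r of mean log2 CPM over the 16 groups, among 8443 genes, as a description (the groups share site and cell type). Entpd1 was most like Itgae, the integrin CD103 (r = 0.984), Ikzf2, the transcription factor Helios (0.969), and Il2ra, the interleukin 2 receptor alpha chain (0.968). Nt5e was most like Smpdl3a (0.941), Ptger2 (0.941), a prostaglandin E2 receptor gene, and Cd38 (0.934). Cd38 was most like Plscr1 (0.965), Maf (0.948) and Serpina3g (0.947). Adora2a was most like Snx18 (0.987), Mxd1 (0.978) and Rel (0.974), a subunit of NF-kB. Ada was closest to Mettl3 (0.949), Farsa (0.943) and Golga1 (0.921), and Dpp4 to Lax1 (0.945), BE692007 (0.942) and Zfp874b (0.941). Among the 6 themselves r ran from 0.93 between Nt5e and Cd38 to -0.70 between Ada and Adora2a.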

How the data were processed

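Bulk RNA of sorted Treg and Tconv was sequenced in 42 libraries, after a SMART-Seq v4 protocol per the labels' protocols. The count table deposited by the authors holds raw read counts of 46603 genes. The FPKM table deposited by the authors holds 18964 of them and was used only to set levels of different genes side by side; its normalisation between libraries is not given in the sources used here. The tools Bowtie2 2.3.3.1 and cutadapt 1.15 and the build GRCm38 are named, without roles, in the submitters' processing notes; the counting program and annotation are not given in the sources used here. Symbols and positions came from GENCODE M21, and promoter sequences from RefSeq. Groups follow the labelled cell type, site and genotype.

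CPM were computed with one set of TMM factors over all libraries. Tests used the counts with edgeR 4.0.16 (R 4.3.3), quasi-likelihood fits within each site over its 4 groups after filterByExpr, and fits of one cell type over a pair of sites, with Benjamini-Hochberg adjustment over all genes tested and a threshold of 0.05. Standard errors were the log2 fold change divided by the square root of F. Alternatives were DESeq2 1.42.0, RLE factors, no filter, the experiment as a replicate block, a fit of all 42 libraries, a sheet number covariate, the 2 groups alone, the genotypes alone and each library left out. The fits of the joint nodes, of the mesenteric node and of Tconv from ileum and mesenteric node were tested on simulated counts. These gave all genes the same dispersion. Synovial fits and the wider spread of ileal and synovial Treg were not simulated.

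The main fits held no term for the experiment letter, which the labels call a separate experiment. It paired libraries only in the replicate block. Deviations of same-letter TNFdARE and WT libraries from their group means correlated above 0.1 in 13 of 18 library pairs (0.028 to 0.502, median 0.29). The members and lists were chosen with earlier results of these data known. Named are the 6 members, from each list up to 4 genes, those of smallest adjusted p, and the 3 genes most like each member.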

Additional observations from a re-analysis of the deposited data

Results flagged for a closer look

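The Treg to Tconv ratio differed between ileum and mesenteric node for 4 of the 6 genes by a test of that difference (edgeR quasi-likelihood, Benjamini-Hochberg adjusted), each ratio being smaller in the ileum. On the log2 scale the ileum minus mesenteric node difference was -2.74 for Cd38, -2.13 for Entpd1, -1.16 for Nt5e and -0.90 for Dpp4. Foxp3 in Tconv, as a share of the Treg level, was also higher in the ileum than in the mesenteric node. It was 9.41% against 2.59% in TNFdARE and 1.41% against 0.657% in WT, and its part was not tested.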

How the results depend on the processing

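With any single library left out, the members called ranged from 7 to 10 for TNFdARE against WT (9 of 42 in the main fits), 14 to 16 for Treg against Tconv (15 of 24), 29 to 33 between sites (32 of 48) and 4 to 6 for interactions (4 of 36). The replicate block gave 13, 15, 32 and 5. DESeq2 gave 15 for TNFdARE against WT and 8 for interactions, and no filter gave 9 for interactions; the cause was not tested. No member that passed changed its sign under the alternatives run. The replicate block ended the call of Ada between ileum and mesenteric node in Treg and added those named in the text; it changed no other member's call. Values that moved, and calls that ended with a library left out, stand beside their results. WT synovial Tconv, with 1 library, had no test. Ada, and Entpd1 and Cd38 in node Tconv, rest on few counts, which limits their precision.

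Counts of all genes called depend on the fit; the first range in parentheses is over the alternative settings. TNFdARE against WT called 116 in Treg ileum (5 to 729, and 36 to 695 with a library left out) and 208 in Tconv ileum (194 to 636, and 92 to 273 with a library left out). There were 842 in Treg mesenteric node (194 to 1405, and 221 to 835 with a library left out) and 350 in Tconv mesenteric node (121 to 884, and 131 to 380 with a library left out). The test called 838 in Treg joint nodes (86 to 1524, and 332 to 1013 with a library left out) and 410 in Tconv joint nodes (123 to 605, and 276 to 444 with a library left out). The fit called 28 in Treg synovium (0 to 3512, and 0 to 1419 with a library left out). Treg against Tconv called 2353 in the ileum (1264 to 3452, and 1541 to 3090 with a library left out) and 5720 in the mesenteric node (2437 to 6200, and 4640 to 5550 with a library left out). By the same contrast there were 6351 in the joint nodes (2980 to 7503, and 5573 to 6771 with a library left out) and 0 in the synovium (0 to 654, and 0 to 4 with a library left out). Between sites there were 4881 in Treg of ileum against mesenteric node (1107 to 6245, and 1996 to 6307 with a library left out) and 6177 in Treg of synovium against joint nodes (3216 to 8879, and 4723 to 8459 with a library left out). Site fits called 1271 in Treg of ileum against synovium (405 to 6302, and 734 to 2833 with a library left out) and 1932 in Treg of mesenteric node against joint nodes (323 to 3197, and 1304 to 1957 with a library left out). Calls numbered 9672 in Tconv of ileum against mesenteric node (5915 to 9982, and 8341 to 9397 with a library left out) and 6075 in Tconv of synovium against joint nodes (4826 to 7082, and 4589 to 7721 with a library left out). Genes called were 3736 in Tconv of ileum against synovium (2343 to 5081, and 2322 to 5547 with a library left out) and 607 in Tconv of mesenteric node against joint nodes (143 to 1456, and 314 to 758 with a library left out). Interactions called 3 in the ileum (Treg minus Tconv genotype effect) (4 to 73, and 0 to 98 with a library left out) and 31 in the mesenteric node (Treg minus Tconv genotype effect) (3 to 339, and 6 to 47 with a library left out). Interaction tests gave 66 in the joint nodes (Treg minus Tconv genotype effect) (13 to 224, and 30 to 87 with a library left out) and 1 in ileum minus mesenteric node of the Treg genotype effect (1 to 134, and 0 to 40 with a library left out). For interactions there were 53 in mesenteric node minus joint nodes of the Treg genotype effect (2 to 341, and 10 to 107 with a library left out) and 1101 in ileum minus mesenteric node of the Treg to Tconv ratio (721 to 1824, and 714 to 1904 with a library left out).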
